A study of Sus scrofa with 23 samples.

Results

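FOS (ENSSSCG00000002383) and BATF3 (ENSSSCG00000026587) are the 2 genes described here, out of 8603 genes in an FPKM table of porcine oocytes and pre-implantation embryos. The authors titled that table as one of differentially expressed genes without stating the selection, so each share of all genes given here is a share of a set that appears preselected for change. They were taken from the table by gene identifier and followed through all 23 libraries. The pair was chosen by its FPKM values in these same libraries, so the levels below are a description and carry no test. Each of the 23 conditions had 1 library, so no p-value between conditions could be computed.

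Porcine (Sus scrofa) embryos of 3 groups were sampled. The IV-D group held oocytes matured in vivo and embryos of Duroc sows, all sired by 1 Duroc boar and flushed from the sows (8 libraries). The NT-D group held clones made with ear fibroblasts of that same boar (8 libraries, the in vitro matured oocyte included), and the NT-LW group clones made with ear fibroblasts of 1 Laiwu boar (7 libraries). Both kinds of clone were cultured in vitro, were male and came from 1 cell line each, whereas IV-D embryos were of mixed sex. Clones were made with oocytes matured in vitro from slaughterhouse ovaries, whereas IV-D oocytes matured in the sow. Breed, way of fertilization, culture, sex and oocyte source therefore differ together between IV-D and NT-LW and cannot be told apart. The same holds for fertilization, culture, sex and oocyte source between IV-D and NT-D. Several oocytes or embryos were pooled in each library, and the libraries held 14952784 to 22991067 fragments. The in vitro matured recipient oocyte served NT-D and NT-LW alike as their oocyte stage, and it is labelled Duroc although the study's text describes these oocytes as coming from hybrid sows. Stages were the oocyte, 1-cell, 2-cell, 4-cell and 8-cell embryo and morula. Blastocysts were cut by hand into a part that held the inner cell mass with some trophectoderm (IT) and a part of trophectoderm alone (TE).

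AP-1 is a family of leucine-zipper transcription factors that bind DNA as pairs. FOS cannot pair with itself and binds mainly with a JUN protein, and its gene is an immediate early gene, transcribed within minutes of a growth factor or stress signal that passes through MAP kinases and serum response factor. BATF3 has the basic zipper but no transactivation domain, pairs with JUN proteins, works with IRF factors at composite sites, and is best known for the development of a class of dendritic cells.

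In the RefSeq annotation of Sscrofa11.1, FOS lies on chromosome 7 at 98449508 to 98451971 on the plus strand with 4 exons, and BATF3 on chromosome 9 at 130699092 to 130711719 on the plus strand with 3 exons. The FOS model holds coding sequence only, 1143 bases, so its first base is the start codon and the transcript start is not annotated. The BATF3 model starts 211 bases before its start codon. DNA before both genes is printed. The 2 stretches are not like for like, being anchored at a start codon for FOS and at an annotated gene start for BATF3. The FOS stretch runs from 466 to 167 bases before the start codon (chr7:98449042-98449341), and capitals mark, in this order, a CArG box, the site of serum response factor, the cyclic AMP response element core TGACGT, and the TATA box letters TATAAA. The BATF3 stretch holds the 250 bases before the annotated start (chr9:130698842-130699091), and capitals mark GC boxes (GGGCGG), 2 of which overlap.
FOS: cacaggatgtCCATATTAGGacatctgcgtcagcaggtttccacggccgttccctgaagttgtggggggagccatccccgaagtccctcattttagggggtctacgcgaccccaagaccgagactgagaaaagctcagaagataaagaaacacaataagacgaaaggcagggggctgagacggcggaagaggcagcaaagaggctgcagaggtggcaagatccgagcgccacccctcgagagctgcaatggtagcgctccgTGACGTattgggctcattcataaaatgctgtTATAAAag
BATF3: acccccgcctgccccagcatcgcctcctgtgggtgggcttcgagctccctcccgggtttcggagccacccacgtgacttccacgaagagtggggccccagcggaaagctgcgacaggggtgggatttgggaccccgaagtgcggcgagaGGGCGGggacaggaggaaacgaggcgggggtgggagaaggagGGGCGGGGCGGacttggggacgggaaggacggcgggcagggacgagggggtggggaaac

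A set of 5 motifs was searched on both strands in the 600 bases before FOS, before BATF3 and before each of 19528 protein-coding genes. The CArG box occurred once before FOS and not before BATF3, and 3.28% of all windows held one. TGACGT and TATAAA each occurred once before FOS and not before BATF3, with 11.3% and 24.6% of all windows holding them. GGGCGG occurred once before FOS and 4 times before BATF3, and 53.3% of windows held it. The AP-1 element TGACTCA itself, held by 7.22% of windows, was in neither. A letter match is not a bound site, and the window of FOS ends at its start codon whereas most others end at a transcript start.

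FOS was not detected in either oocyte library and was highest in the IT part of IV-D blastocysts. In IV-D it stood at 0 FPKM in the oocyte, 7.20 at the 1-cell, 0.0323 FPKM in 2-cell embryos, then 1.97 in 4-cell and 7.23 FPKM in 8-cell embryos, 23.1 in the morula, 68.8 in IT and 1.99 in TE. After the 2-cell stage the level was thus higher at each step to IT, whereas TE lay near the 4-cell level. FPKM counts fragments per kilobase of gene, scaled to library depth, and the 0 in the IV-D oocyte means 0 fragments, which allows up to 0.0522 FPKM (3 fragments). In NT-D, FOS was 0 in the oocyte, 0.207 at the 1-cell, 0.103 at the 2-cell, 1.70 at the 4-cell and 1.83 at the 8-cell stage, 12.6 in the morula, 3.24 in IT and 0 in TE. In NT-LW it was 0.0182 at the 1-cell, 0.0183 at the 2-cell, 3.24 at the 4-cell and 1.32 at the 8-cell stage, 28.7 in the morula, 2.57 in IT and 0.715 in TE. In both clone groups the morula was thus the highest library, and IT lay above the 4-cell level in NT-D and below it in NT-LW.

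BATF3 was nearly silent up to the 2-cell stage, with 0 to 3 fragments in each of those 8 libraries, and peaked at the morula in all 3 groups. In IV-D it was 0 FPKM in the oocyte and 1-cell embryo, 0.0911 at the 2-cell, 0.0440 at the 4-cell and 1.90 at the 8-cell stage, 20.3 in the morula, 16.1 in IT and 0.0467 in TE. IV-D thus kept most of its morula level in IT and had 1 fragment in TE. In NT-D it was 0.0383 in the oocyte, 0.0432 at the 1-cell, 0.0771 at the 2-cell, 1.16 at the 4-cell and 5.93 at the 8-cell stage, 48.0 in the morula, 5.14 in IT and 0 in TE. In NT-LW it was 0.0683 at the 1-cell, 0 at the 2-cell, 0.510 at the 4-cell and 1.41 at the 8-cell stage, 75.4 in the morula, 1.43 in IT and 0.277 in TE. The clone morulae were therefore above the IV-D morula, and the clone IT parts below the IV-D IT part.

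**Figure D1:**
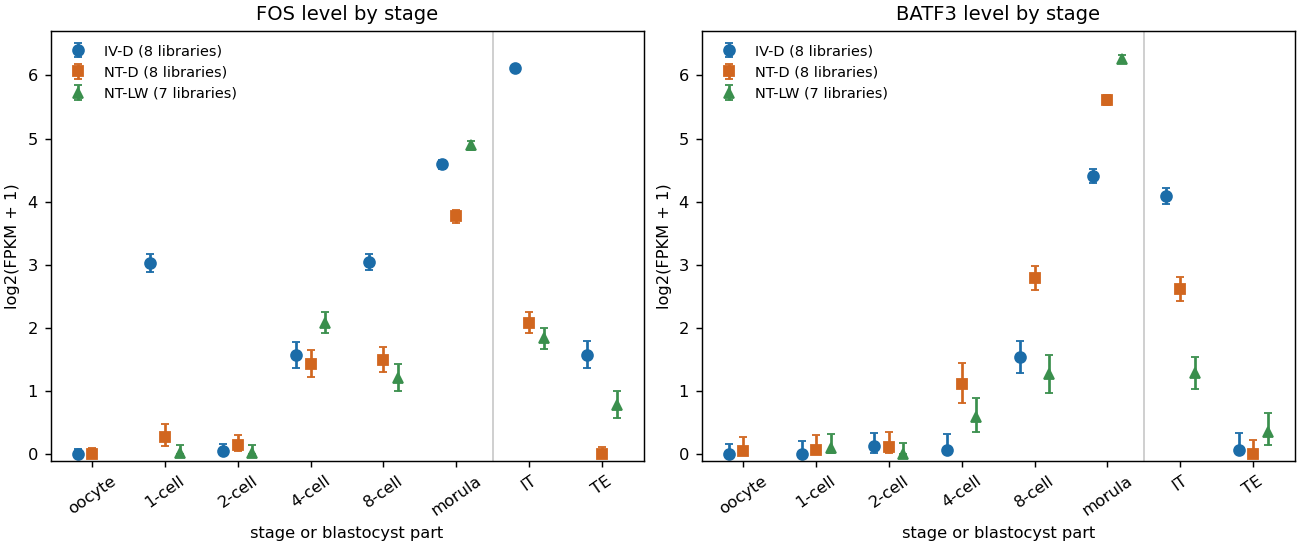
Level of FOS (left) and BATF3 (right) as log2(FPKM + 1) by stage and blastocyst part, 1 library per point, with IV-D as circles, NT-D as squares and NT-LW as triangles. Bars are 95% counting intervals of the fragments and do not cover variation between embryos. FOS is highest in IV-D IT (68.8 FPKM) and BATF3 in the NT-LW morula (75.4 FPKM).

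Ranked over the 23 libraries, FOS was highest in IV-D IT (95% counting interval 66.6 to 71.1 FPKM), then in the NT-LW (27.2 to 30.2), IV-D (21.9 to 24.4) and NT-D morulae (11.7 to 13.6), and these 4 intervals did not overlap. The IV-D 8-cell and 1-cell libraries followed with overlapping intervals, 6.53 to 7.97 and 6.43 to 8.03 FPKM. Ranks 7 to 14, from NT-D IT (3.24 FPKM) down to the NT-LW 8-cell embryo (1.32 FPKM), formed a chain in which each interval overlapped the next. BATF3 ranked highest in the NT-LW (72.0 to 78.8 FPKM), NT-D (45.4 to 50.7) and IV-D morulae (18.7 to 22.0) and in IV-D IT (14.7 to 17.7), again without overlap. Below them the NT-D 8-cell embryo and NT-D IT could not be separated by counting error (5.06 to 6.91 and 4.36 to 6.01 FPKM). FOS reached 1 FPKM in 14 of the 23 libraries and BATF3 in 10.

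Across the 23 libraries the 2 profiles had a Pearson's r of 0.82 on log2(FPKM + 1) and a Spearman's rho of 0.75. The libraries share their stage structure, so r is a description only. By r, BATF3 was number 14 of 5645 genes in likeness to FOS, and FOS number 27 in likeness to BATF3. The 1-cell embryo of IV-D departed from the shared profile, with FOS at 7.20 FPKM and BATF3 at 0, and so did IT and morula, whose order differed between the 2 genes in IV-D.

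**Figure D2:**
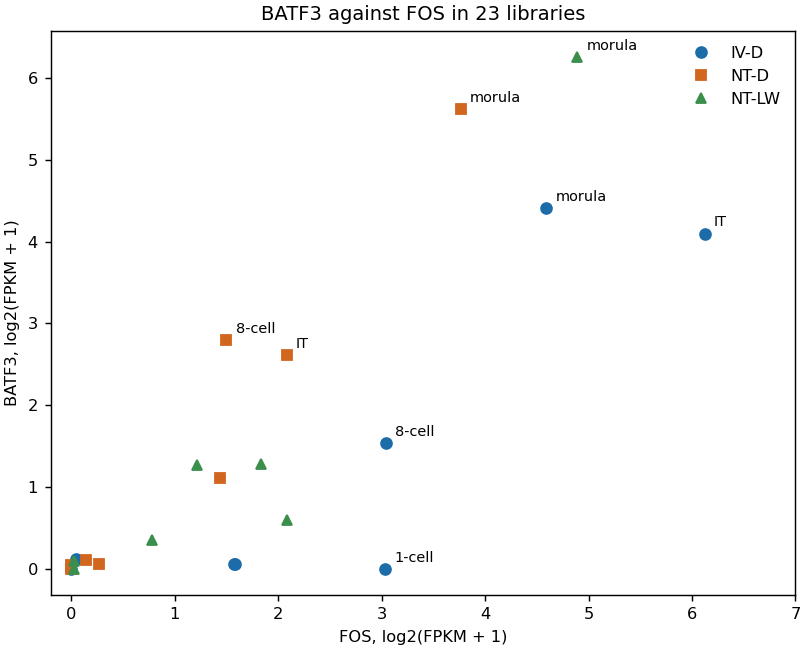
BATF3 against FOS, both as log2(FPKM + 1), 1 point per library, coloured by group, with the stage written beside points above 2.5 on either axis. The 3 morulae and IV-D IT lie at the upper right, and the IV-D 1-cell embryo lies on the base line at 7.20 FPKM of FOS and 0 of BATF3.

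The genes whose profile was most like FOS were PKM (r = 0.88, pyruvate kinase), RND3 (0.88), DUSP1 (0.87, a phosphatase that switches MAP kinases off) and CSRP1 (0.85, a LIM-domain protein). DUSP1, like FOS, was detected in 1-cell IV-D embryos (7.55 FPKM), was low in 2-cell embryos (0.522) and had its maximum in IV-D IT (89.8). Unlike FOS, it was also above 1 FPKM in the NT-D oocyte (3.36) and in the 1-cell clones of NT-D (3.51) and NT-LW (1.43). PKM was 17.3 FPKM in IV-D IT but highest in the NT-D morula (20.6), and RND3 was highest in the IV-D morula (152). The genes most like BATF3 were SLC23A2 (r = 0.90, a vitamin C transporter), FCHSD2 (0.89), BBX (0.89) and SPOPL (0.89). SLC23A2, FCHSD2 and BBX shared the maximum of BATF3 in the NT-LW morula, at 16.3, 11.5 and 51.0 FPKM.

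At the 1-cell stage FOS was present in the fertilized but hardly in the cloned embryos. The IV-D library held 322 FOS fragments, the NT-D library 9 and the NT-LW library 1. The IV-D oocyte held none, so the 1-cell level was at least 138-fold higher than in the oocyte, taking 3 fragments per library as the floor, and the lower 95% counting bound of the ratio was 112. The IV-D level was 34.8-fold that of NT-D (95% counting interval 18.1 to 76.8), and at the 2-cell stage IV-D had 2 fragments. A change was called when log2(FPKM + 1) differed by more than 1 and at least 1 of the libraries reached 1 FPKM, and FOS was called lower in 2-cell than in 1-cell IV-D embryos, with a difference of -2.99. Of all genes tested, 24.6% were called lower in that step. Fibroblast markers were also present in the IV-D 1-cell library. Of 12 on the list 6 were in the table, 5 of them reached 1 FPKM, and they summed to 30.4 FPKM against 1.82 in the IV-D oocyte and 3.43 in 2-cell embryos. In the 1-cell clones, which received a fibroblast nucleus, the same markers summed to 66.6 (NT-D) and 63.0 FPKM (NT-LW) with FOS at 0.207 and 0.0182. The higher clone sums came mainly from ACTA2, a smooth muscle actin, at 4.66 in IV-D, 39.6 in NT-D and 46.9 in NT-LW, whereas VIM was 7.02, 4.02 and 3.31 and COL1A1 4.76, 3.66 and 1.79. Of the cumulus cell list, FST was 6.51 in the oocyte, 12.7 at the 1-cell and 4.74 FPKM at the 2-cell stage of IV-D. HAS2 was 0.0843, 0 and 0.0294 there, and FST in the 1-cell clones was 12.5 (NT-D) and 10.9 (NT-LW). The part of fibroblasts or cumulus cells in the FOS level was not tested. In bulk libraries, a larger share of cells and more RNA per cell cannot be told apart.

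Between the 4-cell and 8-cell stages, around the time the porcine embryonic genome becomes active, FOS took a different course in the 3 groups and BATF3 was higher at the 8-cell stage in each. FOS in IV-D was 3.67-fold higher at the 8-cell stage (lower counting bound 2.90), a difference of 1.47 on the log2(FPKM + 1) scale. In NT-D the difference was 0.06 and in NT-LW -0.87, neither called, although the NT-LW 8-cell level was 2.46-fold below the 4-cell level (1.81 to 3.38 by counting). BATF3 was called higher in IV-D (1.47) and NT-D (1.68). In NT-LW it was 2.76-fold higher (1.44 to 5.58), a difference of 0.67 that was not called but was with pseudocount 0.1. This step moved many genes: 63.2% of tested genes were called changed in IV-D, 60% in NT-D and 53.7% in NT-LW, and the median difference of all genes was 0.25, 0.13 and 0.05.

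At the 8-cell stage FOS was therefore lower in both kinds of clone than in IV-D, a contrast that was known when FOS was chosen. The level was 7.23 FPKM in IV-D against 1.83 in NT-D, 3.95-fold lower (3.15 to 5.00), and 1.32 in NT-LW, 5.49-fold lower (4.16 to 7.36). BATF3 went the other way in NT-D, where 5.93 FPKM was 3.12-fold the IV-D level (lower counting bound 2.29), and in NT-LW it was 1.41 against 1.90 in IV-D with a counting interval that included no difference. At the 4-cell stage FOS had been 1.97, 1.70 and 3.24 FPKM in IV-D, NT-D and NT-LW, and BATF3 0.0440, 1.16 and 0.510, or 1, 25 and 14 fragments. The share of all genes called lower at the 8-cell stage was 17.4% for NT-D and 17.3% for NT-LW against IV-D. The 2 clone groups share the IV-D library in these comparisons.

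From the 8-cell stage to the morula both genes were called higher in all 3 groups. FOS was 3.20-fold higher in IV-D, 6.90-fold in NT-D and 21.8-fold in NT-LW, and BATF3 10.7-fold, 8.09-fold and 53.6-fold. Genes called higher in this step were 12.3%, 31.6% and 22.4% of those tested. In the morula BATF3 was called higher than in IV-D in both NT-D (2.36-fold, lower counting bound 2.15) and NT-LW (3.71-fold, 3.39), where 18.7% and 11.6% of all genes were called higher. On a median-ratio scaling the NT-D difference for BATF3 was 0.91 and no longer called. FOS in the NT-D morula was 1.83-fold below IV-D (1.67 to 2.02) and in the NT-LW morula 1.24-fold above (lower bound 1.15), neither called. On median-ratio scaling the NT-D difference for FOS was -1.07 and called.

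From the morula to IT the groups parted. FOS was 2.97-fold higher in IV-D IT than in the IV-D morula, where 7.7% of tested genes were called higher. It was 3.89-fold lower in IT than in the morula of NT-D (3.30 to 4.61), and in NT-LW the counting interval of the fold was 9.41 to 13.3, also lower in IT. BATF3 in IV-D IT was 1.26-fold below the morula (1.11 to 1.43), which was not called, and it was 9.34-fold lower in NT-D and 52.8-fold lower in NT-LW. Genes called lower in this step were 7.59% of those tested in IV-D, 35.1% in NT-D and 28.1% in NT-LW. The median of all genes was -0.16, -0.64 and -0.51, so the clone tables as a whole were lower in IT. In IT, FOS was 21.2-fold lower in NT-D (18.3 to 24.8) and 26.8-fold lower in NT-LW (22.7 to 31.7) than in IV-D. BATF3 was 3.14-fold lower in NT-D (2.61 to 3.79) and 11.3-fold lower in NT-LW (8.27 to 15.8). Of all genes, 15.4% and 13.7% were called lower there. The paper compared NT-D and IV-D blastocysts with replicates. Above its FPKM cutoff, the differing transcription factor genes it named were ASZ1, EHF, FOXA2, KLF2 and ZIC5. FOS and BATF3 were not among them, so the IT contrast of these single libraries is not part of that replicated result.

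Both genes were higher in IT than in TE in every group, by unequal amounts. BATF3 in IV-D had 448 fragments in IT and 1 in TE, a ratio of 345 with a lower counting bound of 61.7, and FOS was 34.7-fold higher (lower bound 27.8). In NT-D neither gene had a fragment in TE, so the IT level was at least 45.4-fold higher for FOS and 38.3-fold for BATF3 than in TE, with the same floor, and the lower counting bounds were 36.5 and 30.8. In NT-LW, FOS was 3.60-fold higher in IT (lower bound 2.47) and BATF3 5.16-fold (lower bound 2.31). The BATF3 difference in NT-LW, 0.93 on the log2(FPKM + 1) scale, was not called, but it was with pseudocount 0.1 (2.02) and on rescaling to a common sum (1.21). The FOS difference there, 1.06, was called and fell to 0.91 on median-ratio scaling, under the threshold. The IV-D contrast was known when BATF3 was chosen. Genes called higher in IT were 18% of those tested in IV-D, 4.32% in NT-D and 5.07% in NT-LW, so the 2 parts differed in fewer genes in clones.

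The labels of the parts were checked against markers. NANOG, the pluripotency factor, stood at 9.80 FPKM in IV-D IT, 5.00 in NT-D IT and 3.76 in NT-LW IT and at 0 in all 3 TE libraries. Of 9 inner cell mass markers on the list 3 were in the table, and they summed to 32.3 FPKM in IT against 2.05 in TE in IV-D, 17.2 against 15.2 in NT-D, and 12.9 against 12.4 in NT-LW. In TE, GDF3 stood at 1.22 in IV-D, 14.0 in NT-D and 9.08 FPKM in NT-LW. KLF17 was 14.2 in IT and 0.821 in TE of IV-D, 2.56 and 1.18 in NT-D, and 2.45 and 3.30 in NT-LW, so NANOG alone of the 3 passed the threshold in every group. The paper had picked KLF17, like BATF3, as specific to the inner cell mass of IV-D from these same data. Its IV-D contrast was therefore known beforehand and is no check of the labels, and the marker sum includes it. All 9 measured trophectoderm markers reached 1 FPKM in each IT library. Their sum was higher in IT than in TE in IV-D (1540 and 1393 FPKM) and lower in IT in NT-D (1295 and 2024) and NT-LW (1767 and 2955). In IV-D, ELF3, an epithelial ETS factor, was higher in IT by 1.83 on the log2(FPKM + 1) scale, from 2.40 FPKM in TE. CLDN4, a tight junction protein, was 105 in IT and 42.6 FPKM in TE, and GATA3 5.42 and 14.0. The hypoblast receptor gene PDGFRA was 11.6 in IT and 0.0614 in TE of IV-D, and 1.66 in NT-D IT and 2.22 in NT-LW IT. PDGFRA and KLF17 were thus lower in both clone IT parts than in IV-D IT, as FOS and BATF3 were, and NANOG was lower by the threshold in NT-LW only. GDF3 did not follow, at 8.26 FPKM in IV-D IT, 9.68 in NT-D IT and 6.73 in NT-LW IT, neither clone difference being called. GATA6 was 37.7, 34.0 and 37.4 FPKM in the IT parts of IV-D, NT-D and NT-LW. In IT and TE of IV-D, of the cumulus cell list FST was 52.4 and 7.16 and HAS2 0.0116 and 0.0752. Of the leukocyte list, FCER1G and AIF1 were lower in IV-D IT than in TE and in clone IT, and IRF8 was higher. FCER1G, a subunit of Fc receptors, was 33.0 FPKM in IV-D IT and 601 in IV-D TE, 1049 in NT-D IT and 417 in NT-LW IT, and AIF1 was 2.26 in IV-D IT, 81.2 in IV-D TE, 83.5 in NT-D IT and 52.1 in NT-LW IT. IRF8 was 5.36 in IV-D IT, 0.133 in IV-D TE, 0.338 in NT-D IT and 0.0741 in NT-LW IT. Within clones FCER1G was 880 FPKM in NT-D TE and 420 in NT-LW TE, and AIF1 63.8 and 33.7, so neither was lower in IT by the threshold there, although BATF3 was the higher in IT. In the morulae AIF1, like BATF3, was higher in clones, at 1.02 FPKM in IV-D, 35.4 in NT-D and 16.4 in NT-LW. FCER1G was 1.55, 0.830 and 0.371 there and IRF8 2.27, 1.48 and 1.42, so neither FCER1G nor IRF8 was higher in a clone morula. Only 4 of the 12 leukocyte markers were in the table, and their sum was 40.8 FPKM in IV-D IT against 469 to 1133 in the clone IT parts. The cell make-up of each IT part was not measured, and its part in the FOS, BATF3 and immediate early gene levels was not tested.

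Of the 22 AP-1 and related zipper genes on the list, 9 were in the table. JUN, the partner of both FOS and BATF3, had its maximum in IV-D IT with FOS, at 43.8 FPKM, against 12.2 in the IV-D morula and 3.55 in TE. In the 15 NT-D and NT-LW libraries, the recipient oocyte included, JUN stayed between 1.37 and 4.75 FPKM. It was 4.21 and 3.23 in the morulae where BATF3 was highest, and 3.62 and 2.78 in IT. ATF3, a stress-induced member that also pairs with JUN, was present in all blastocyst parts, at 28.8 in IV-D IT, 20.0 in NT-D IT and 22.4 FPKM in NT-LW IT, and did not pass the threshold between IT and TE in any group. FOSL2, the other FOS-like gene measured, never exceeded 2.45 FPKM.

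The remaining members were highest before the 8-cell stage. ATF7, a relative of ATF2, reached 33.5 FPKM in the NT-D 1-cell embryo and was 0.856 in IV-D IT. MAF and MAFG, zipper factors of the Maf group, peaked at 15.9 and 24.0 FPKM in the NT-LW 2-cell and the NT-D 1-cell embryo, and MAF was at 0 in IV-D IT. ATF2 was measured at 3.56 to 19.5 FPKM in all libraries. Correlation with FOS over the 23 libraries was 0.60 for JUN, 0.61 for ATF3, 0.56 for FOSL2, and negative for ATF2, ATF7, MAF and MAFG, the lowest being MAF at -0.63.

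Counted by the threshold, 5 of 8 tested members changed from 4-cell to 8-cell in IV-D against 63.2% of all genes, FOS, BATF3 and ATF3 higher and ATF7 and MAF lower. At the 8-cell stage 4 of 8 changed in NT-D against IV-D, compared with 28.3% of all genes. FOS was lower there, and JUN (0.522 in IV-D, 2.95 in NT-D), MAF (0.267 and 2.08) and BATF3 were higher. Between IT and TE of IV-D 4 of 8 changed against 27.8% of all genes, with FOS, JUN and BATF3 higher and MAF lower. Since FOS and BATF3 were chosen with these values known, they add nothing to those counts as evidence, and without them the counts were 3, 2 and 2 of 6.

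**Figure D3:**
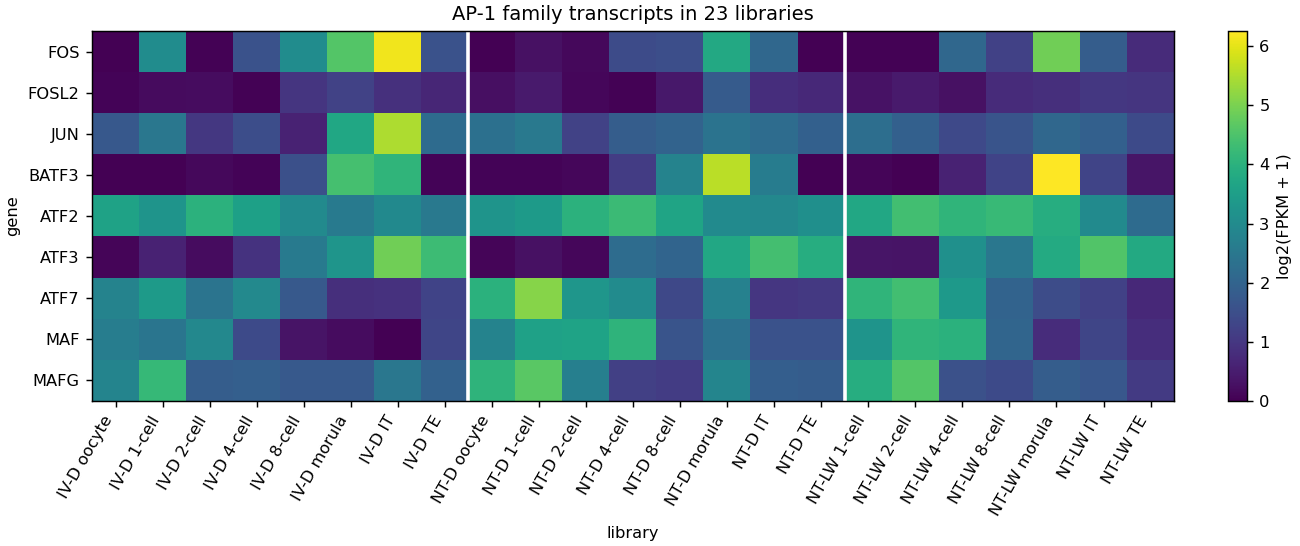
Level of the 9 AP-1 and related zipper genes in the table as log2(FPKM + 1), genes in rows and the 23 libraries in columns, with white lines between IV-D, NT-D and NT-LW. FOS and JUN are both brightest in IV-D IT, whereas BATF3 is brightest in the clone morulae.

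Immediate early genes, those induced at once by growth factors or stress, were mostly higher in IT than in TE of IV-D, where FOS was also higher. The list excluded AP-1 members, and 22 of its 39 genes were in the table. Of 20 tested between IT and TE of IV-D, 14 were called higher in IT and 0 lower, against 18% and 9.83% of all genes, and the median difference was 2.12 against 0.19 for all genes. DUSP1 was 89.8 against 3.89 FPKM, GADD45G, a stress and growth-arrest gene, 64.9 against 2.56, and IER2 41.9 against 4.32. PPP1R15A, which reverses the stress block on translation, was 29.0 against 3.69. ZFP36, which destabilizes AU-rich mRNAs, was 23.7 against 4.91, and SNAI1, a zinc-finger repressor, 23.1 against 0.814. The paper had picked SNAI1, like BATF3, as specific to the inner cell mass of IV-D. Its call here was therefore known beforehand, and the count includes it. EGR1, a classic serum response factor target, was at 0.663 and 0.172 FPKM and was not tested, being under 1 in both.

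Most tested members of the list were also lower in the IT parts of clones than in IV-D IT. In NT-D IT 15 of 20 were called lower than in IV-D IT and 0 higher, against 15.4% and 9.47% of all genes. In NT-LW IT the counts were 14 and 0 of 20, against 13.7% and 8.7%, with medians of -1.54 and -1.43 against -0.15 and -0.10 for all genes. DUSP1 was 4.99 FPKM in NT-D IT and 2.35 in NT-LW IT, GADD45G 0.887 and 2.25, and PPP1R15A 1.36 and 1.54. Within the clone blastocysts, IT against TE called 6 of 18 higher and 1 lower (IER2) in NT-D, against 4.32% and 0.385% of all genes, and 4 of 18 higher in NT-LW, against 5.07%, those 4 being IER2, IER3, DUSP5 and KLF4, named here after their values were seen. The NT-LW count higher was 2 on median-ratio scaling, 6 rescaled to a common sum and 8, with 1 lower, by the exact binomial test on fragments, which compares libraries only. Summed over the 22 genes, the level was 523 FPKM in IV-D IT and between 26.8 and 288 in every other library.

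**Figure D4:**
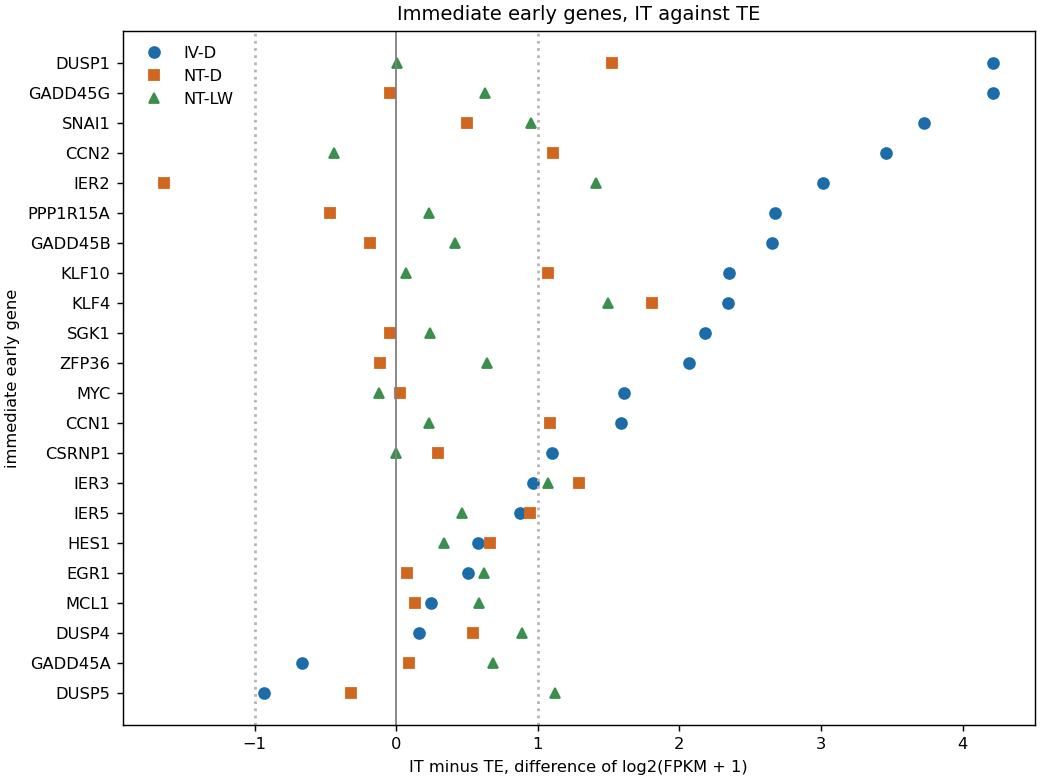
Difference of log2(FPKM + 1), IT minus TE, for the 22 immediate early genes in the table, with IV-D as circles, NT-D as squares and NT-LW as triangles, ordered by the IV-D value. Dotted lines mark differences of 1 and -1. The IV-D median over tested genes is 2.12, and the clone points lie mostly within the dotted lines.

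At the 8-cell stage some immediate early genes were lower in clones than in IV-D, though not most of those tested. Of 19 tested, 9 were called lower and 1 higher (IER3) in NT-D, against 17.4% and 10.8% of all genes, and 9 lower and 2 higher (IER3 and GADD45A) in NT-LW, against 17.3% and 16.3%. The medians were -0.71 and -0.81 against -0.12 and -0.02 for all genes. On median-ratio scaling the split was 7 lower and 2 higher in both NT-D and NT-LW. SNAI1 was 18.8 FPKM in IV-D, 3.97 in NT-D and 0.870 in NT-LW, PPP1R15A 7.41, 0.976 and 1.26, and DUSP1 38.9, 14.9 and 12.1. HES1, a Notch-responsive repressor, was 11.9, 3.15 and 4.21, GADD45G 2.58, 0.348 and 0, and ZFP36 4.19, 1.06 and 2.38. The paper had listed SNAI1 and HES1, with FOS, as suppressed in NT-D 8-cell embryos. Their NT-D calls were therefore known beforehand, and the counts include them. In 8-cell against 4-cell IV-D embryos, 9 of 20 were called higher and 3 lower (IER3, MYC and CSRNP1), with 35% and 28.1% of all genes called higher and lower. On median-ratio scaling the split was 7 and 4, and rescaled to a common sum it was 9 and 5. At the 1-cell stage of IV-D, where FOS was high, EGR1 was 1.34 and DUSP1 7.55 FPKM, and 2 of 8 tested members were called higher than in the oocyte, DUSP1 and SGK1, against 13.7% of all genes.

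The MAP kinase cascade transmits growth factor signals to FOS, and 22 of its 40 genes were in the table. From 4-cell to 8-cell IV-D embryos 4 of 18 tested were called higher and 5 lower, against 35% and 28.1% of all genes. At the 8-cell stage of NT-D against IV-D 3 of 18 passed the threshold, against 28.3% of all genes. ELK3, a ternary complex factor that sits beside serum response factor, was 0.427 in IV-D and 3.31 FPKM in NT-D, and MAPK8, the JNK1 kinase that phosphorylates JUN, 6.14 and 13.6. GRB2, the adaptor that links receptors to RAS, was 4.65 and 1.27. PDGFRA, MAP2K2 and MAP2K1, a receptor and 2 kinases, were 1.25, 6.04 and 4.29 FPKM in IV-D and 0.127, 2.59 and 7.45 in NT-D, which did not pass. Rescaled to a common sum, 1 was higher and 3 lower. Between IT and TE of IV-D 3 of 20 were called, against 27.8% of all genes, with a median of -0.04. They were PDGFRA and FGFR4 (4.85 FPKM in IT and 0 in TE), both higher, and MAP2K1 (2.54 and 18.8), lower. In IT, 2 of 20 were higher and 3 lower in NT-D than in IV-D, and 3 higher and 3 lower in NT-LW, against 9.47% and 15.4% of all genes for NT-D and 8.7% and 13.7% for NT-LW.

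A list of BATF3 partners, LIF and interleukin 6 pathway members and further genes, ID2 and NFIL3 among them, had 11 of 21 in the table. Between IT and TE of IV-D 6 of 9 tested were called higher and 0 lower, against 18% and 9.83% of all genes, with a median of 1.59. IRF8, which acts with BATF3 in dendritic cells, was 5.36 against 0.133 FPKM, IRF1 5.95 against 0.278, ID2 15.6 against 2.08, NFIL3 9.97 against 2.65, STAT3 3.83 against 0.147 and IL6ST, the shared receptor chain, 44.9 against 14.7. In NT-D IT 5 of 9 were called lower than in IV-D IT (IRF1, IRF8, STAT3, NFIL3 and ID2), against 15.4% of all genes, and 5 of 9 in NT-LW IT, against 13.7%. In the morulae, where BATF3 was highest, IRF8 was 2.27 in IV-D, 1.48 in NT-D and 1.42 FPKM in NT-LW. At the 8-cell stage of NT-D against IV-D 3 of 11 passed, against 28.3% of all genes, with IL6ST at 44.4 in IV-D and 7.39 FPKM in NT-D, ID2 at 1.16 and 5.74, and IRF1 at 0.278 and 1.99. STAT3 (0.525 and 1.47), JAK2 (3.12 and 5.52) and LIFR (1.20 and 1.94) did not pass.

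Genes known as AP-1 targets in other cells were not called higher in the IV-D IT part. Of 22 on the list 8 were in the table, and between IT and TE of IV-D 0 of 6 tested were called higher and 3 lower. These were TIMP3, a metalloproteinase inhibitor (8.16 in IT and 29.8 FPKM in TE), CDKN1A, the cell cycle inhibitor p21 (3.70 and 15.0), and the cytokine IL6 (50.4 and 107). The shares over all genes were 18% and 9.83%. At the 8-cell stage 3 of 6 were called lower in NT-D than in IV-D and 0 higher, against 17.4% and 10.8% of all genes. In NT-LW against IV-D 2 were lower (HMOX1 and IL6) and 2 higher, against 17.3% and 16.3%, the 2 higher being VIM (6.52 FPKM) and CDKN1A (6.45). HMOX1, heme oxygenase, was 23.2 in IV-D and 3.69 FPKM in NT-D, IL6 9.84 and 1.73, and EZR, a linker of membrane and actin, 21.2 and 8.36. TIMP3 (1.09 and 0.112), VIM (1.02 and 1.98) and CDKN1A (1.44 and 0.875) did not pass.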

How the data were processed

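RNA of pooled oocytes or embryos was amplified with SMART-Seq v4 and sequenced from both ends. The authors aligned reads to Sscrofa11.1 with HISAT2 2.0.4, counted them with HTSeq 0.9.1 against Ensembl genes and deposited FPKM values, fragments per kilobase scaled to depth, for 8603 genes. The table is titled as one of differentially expressed genes and the selection is not stated, so counts and shares of genes hold within it only. Symbols of 7371 genes came from a gene name table.

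The FPKM table holds no counts. The spacing of low values gave back whole fragment numbers for 8602 genes. Of their values 100% were whole within 0.02, which the search for the spacing itself largely required. Depth was 14952784 to 22991067 fragments. Counting intervals are 95% exact Poisson or, for ratios, exact binomial intervals, and floors are 3 fragments. Intervals and floors cover counting error only.

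Differences were taken on log2(FPKM + 1) for 46 pairs of libraries, which understates changes of low genes. A call needed a difference over 1 and 1 FPKM in one library. The exact binomial test on fragments, Benjamini-Hochberg adjusted over the table at 0.005, compares libraries and not conditions. It was run as an alternative, as were pseudocount 0.1, minimum FPKM 5 or none, rescaling to a sum of 1000000 and median-ratio scaling. Named genes were FOS, BATF3, all AP-1 members in the table, the 4 genes of highest r with a maximum of at least 10 FPKM, and up to 6 members of each other list with the largest difference between 8-cell embryos of NT-D and IV-D, or in IT against TE for markers. Others were named after their values were seen. The members and lists were chosen with earlier results of these data known. Sequences and positions came from RefSeq on Sscrofa11.1. The scripts were tested on simulated data and used Python 3.11.15, numpy 2.4.6, pandas 2.3.3 and scipy 1.17.1.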

Additional observations from a re-analysis of the deposited data

Results flagged for a closer look

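FOS moved in opposite directions in different groups in 3 comparisons of steps, each beyond counting error in both groups. From the 4-cell to the 8-cell stage the log2(FPKM + 1) difference was 1.47 in IV-D and -0.87 in NT-LW, so the NT-LW step was lower by -2.34. From the morula to IT it was 1.53 in IV-D against -1.68 in NT-D and -3.05 in NT-LW, giving -3.21 and -4.59 between the groups. With 1 library per condition these differences between groups were not tested, and the 2 clone comparisons share the IV-D libraries.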

How the results depend on the processing

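No difference of FOS or BATF3 that was called changed sign under pseudocount 0.1, rescaling to a common sum or median-ratio scaling. Of 92 differences 47 were called, and 0 to 2 calls were lost and 2 to 5 gained under each. The 2 lost, both on median-ratio scaling, were FOS in IT against TE of NT-LW and BATF3 in the NT-D against the IV-D morula. FOS in 8-cell against 4-cell NT-LW was called under all 3 (-1.24 with pseudocount 0.1, -1.22 rescaled), and its small NT-D difference took the other sign on rescaling (-0.15) and median-ratio scaling (-0.13). With pseudocount 0.1, some values moved by more than the margin of their counting interval on the log2 scale. FOS moved to 1.83 in 8-cell against 4-cell IV-D. At the 8-cell stage it moved to -1.93 and -2.37 in NT-D and NT-LW against IV-D. BATF3 moved to -3.41 in IT of NT-LW against IV-D. In IT against TE of NT-D, BATF3 moved to 5.71. With 0 fragments in that TE the interval had no upper end, and a fixed margin of 1 was used instead. Rescaling moved the FOS 8-cell differences to -1.92 and -2.27. With a minimum of 5 FPKM, fewer genes were tested and AP-1 calls were 3 in 8-cell against 4-cell IV-D and 2 in NT-D against IV-D. Of the 4 genes most like FOS, 2 were among the 4 by Spearman's rho. Of the 4 most like BATF3, 0 were by rho, 2 with pseudocount 0.1 and 2 with median-ratio scaling. The cause of these moves was not tested. Median-ratio scaling moved the median of all genes by -0.33 in 8-cell against 4-cell IV-D and by 0.57 from the morula to IT of NT-D. No paired analysis was possible because each condition had 1 library. Replicate variation cannot be gauged from these libraries. The paper had replicates of some IV-D and NT-D stages. It describes those of the 4-cell stage as relatively variable, with a slightly lower correlation than at other stages.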
